A study of Homo sapiens with 6 samples.

Results

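The 9 genes MDM2, MDM4, USP7, BAX, BBC3, PMAIP1, BCL2, BCL2L1 and MCL1 of the p53-MDM2 axis and the BCL2 family were examined for N-Myc and JMJD6 binding in CHP-134 cells, a human neuroblastoma line. A gene counted as listed when it was named as the gene of a bound promoter, or as a nearest gene of a bound typical enhancer or super-enhancer. Of the 9 genes, 4 were listed (MDM4, USP7, BAX and PMAIP1) and 5 were in no list. Among all 20136 protein-coding genes of the annotation, 7517 (37.33%) were in any list, so the count of 4 is near the share of all genes. ChIP-seq had been done on 6 samples of CHP-134 cells, 3 pulled down with an antibody against N-Myc, the transcription factor encoded by MYCN, and 3 with an antibody against JMJD6, a Jumonji domain oxygenase. All samples came from this single line, which the study describes as MYCN-amplified and with a gained JMJD6 gene. The N-Myc samples were cross-linked with formaldehyde alone and the JMJD6 samples with DSG followed by formaldehyde, so that antibody and cross-linking cannot be told apart. The peak lists hold positions common to the 3 replicates of an antibody. The region lists hold promoters and enhancers described as overlapping peaks in all 3. The study's wording can be read as matching to the common peaks or to the peaks of each replicate. No list has a peak height, read count or column per replicate, so that no spread between replicates and no test can be given. The study states a minimum number of reads per sample, but the reads behind a single position are unknown. Absence from the region lists does not show that a gene was unbound, and some unlisted genes had a common peak at a start or inside the gene.

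The p53 protein is a transcription factor that responds to DNA damage and other stress. MDM2 is the ubiquitin ligase that marks p53 for degradation, MDM4 is its partner and blocks p53 activity, and USP7 is a deubiquitinase that stabilizes both MDM2 and p53. In apoptosis, p53 acts in large part through the BCL2 family. BAX permeabilizes the outer mitochondrial membrane, BBC3 (PUMA) and PMAIP1 (NOXA) are BH3-only proteins that release it from inhibition, and BCL2, BCL2L1 (BCL-XL) and MCL1 hold it in check. Myc proteins are known to bind E-boxes, sequences of the form CANNTG with CACGTG as the canonical one. The comparison asks at which of these genes N-Myc, JMJD6 or both were bound.

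An N-Myc-bound promoter was listed for 2 of the 9 genes, MDM4 and PMAIP1, against 17.5% of all protein-coding genes. An N-Myc-bound typical enhancer named 4 of the 9, MDM4, USP7, BAX and PMAIP1, against 31.9% of all genes. None of the 9 was named by an N-Myc-bound super-enhancer, where the share of all genes was 1.31%. None was named in a JMJD6 list either, with 0.626% of all genes having a JMJD6-bound promoter and 0.909% a JMJD6-bound typical enhancer, and none in the lists of regions bound by both proteins. At shares this low a count of 0 among 9 genes is no result about these genes. The promoter and typical enhancer pair of MDM4 and PMAIP1 was found at 2424 genes (12%), the typical enhancer alone of USP7 and BAX at 3671 genes (18.2%), and absence from every list, as for MDM2, BBC3, BCL2, BCL2L1 and MCL1, at 12619 genes (62.7%).

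**Figure D1:**
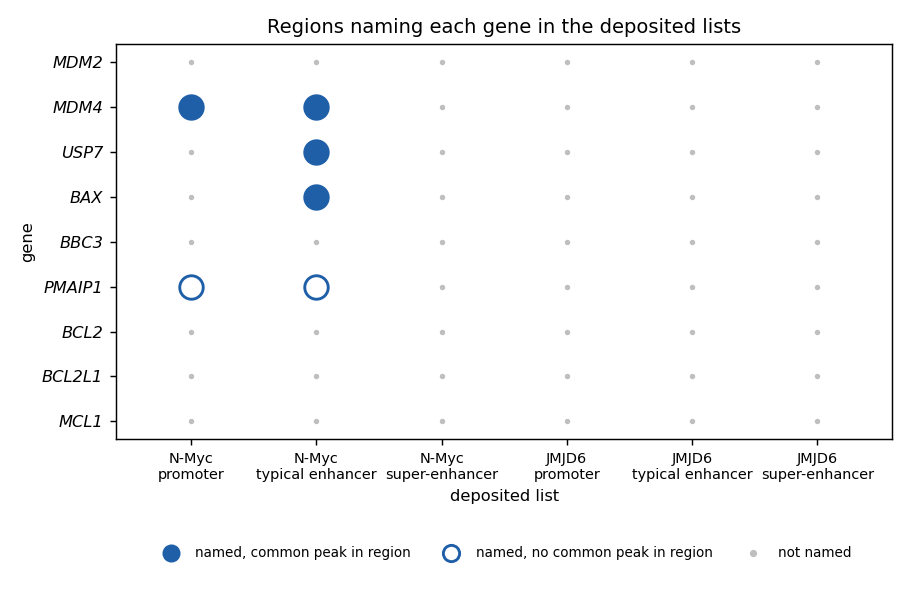
Rows are the 9 genes and columns the lists of regions bound by N-Myc or JMJD6. Filled circles mark genes named by a region that held a common peak, open circles genes named by a region without one, and small dots genes not named. Only MDM4, USP7, BAX and PMAIP1 carry circles, all in the N-Myc promoter and typical enhancer columns, and both circles of PMAIP1 are open.

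Of MDM2, MDM4 and USP7, only MDM4 had a common N-Myc peak at its own start. MDM4 lies on the plus strand at chr1:204485507-204527248 (GRCh37), with 10 annotated start sites. A single common N-Myc peak, at chr1:204485274-204485895, covered its first exon. The peak was 622 bp wide, and 18.8% of the 10172 N-Myc common peaks were at least as wide. Its centre was 5 bp from the nearest annotated MDM4 start site. MDM4 was thus the only one of the 9 genes with a start site under a common peak, which held for 13.3% of all protein-coding genes. The peak contained no CACGTG and 2 matches of CANNTG. The parts of the peak outside the untranslated first exon are shown because they are the only sequence at a start site of these genes that was under a common N-Myc peak. The first, chr1:204485274-204485506, lies before the gene and has no match. The second, chr1:204485638-204485895, lies in the first intron and has both. Both are the plus strand of GRCh37, and capitals mark CANNTG.
MDM4 before the gene: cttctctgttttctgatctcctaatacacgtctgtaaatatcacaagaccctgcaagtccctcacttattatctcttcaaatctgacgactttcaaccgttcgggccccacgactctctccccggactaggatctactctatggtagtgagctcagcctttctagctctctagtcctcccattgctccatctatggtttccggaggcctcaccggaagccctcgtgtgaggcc
MDM4 first intron: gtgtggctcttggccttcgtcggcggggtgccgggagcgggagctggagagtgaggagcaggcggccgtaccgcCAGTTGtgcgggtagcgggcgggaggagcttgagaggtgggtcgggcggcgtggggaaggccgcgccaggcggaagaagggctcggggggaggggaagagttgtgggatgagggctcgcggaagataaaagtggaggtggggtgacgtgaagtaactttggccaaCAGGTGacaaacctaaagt

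The typical enhancer that named MDM4, chr1:204461983-204486609, was 24.6 kb long, covered a start of the neighbouring gene PIK3C2B, a phosphoinositide kinase, as well as the start of MDM4, and named both genes. The peak at the MDM4 start was the only common N-Myc peak in it, so the promoter and the enhancer listed for MDM4 hold the same common peak.

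USP7, on the minus strand at chr16:8985954-9069185, had no listed promoter. Its typical enhancer, chr16:9183778-9187478, was 3.70 kb long and lay 114.6 kb beyond the nearest annotated USP7 start. This region covered the start site of another gene, HAPSTR1, which the promoter list names by its older symbol C16orf72 and gives as N-Myc-bound. HAPSTR1 encodes a protein of cellular stress responses. The only common N-Myc peak in the region, chr16:9185198-9185438, was 241 bp wide, narrower than most, with 97.5% of N-Myc peaks at least as wide. Its centre was 183 bp upstream of the HAPSTR1 start and 127.4 kb lay between the peak and the canonical USP7 start. It is shown whole (plus strand, capitals mark CANNTG) because it was the only common N-Myc peak in the region that named USP7. It held no CACGTG.
Peak named for USP7, upstream of HAPSTR1: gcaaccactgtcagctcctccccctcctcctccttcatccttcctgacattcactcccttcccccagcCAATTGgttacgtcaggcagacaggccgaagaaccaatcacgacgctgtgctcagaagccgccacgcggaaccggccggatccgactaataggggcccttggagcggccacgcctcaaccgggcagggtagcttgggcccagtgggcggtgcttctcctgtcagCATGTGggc

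The N-Myc peak closest to any of the 22 annotated USP7 starts was a different one, at chr16:8960233-8960558 inside the neighbouring gene CARHSP1, 30.6 kb away on the far side. From the canonical start alone this distance was 97.2 kb. It contained 1 CACGTG. No common peak of either protein lay within the USP7 gene.

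MDM2, on the plus strand at chr12:69201957-69239324, was in no list. The nearest common N-Myc peak was 121 kb upstream, at the start of NUP107, a component of the nuclear pore, and no N-Myc peak was found within 100 kb of the gene. For 69.1% of protein-coding genes a common N-Myc peak was nearer to a start site than for MDM2, the highest value of the 9. The MDM2 promoter window did contain 1 CACGTG, 461 bp downstream of the canonical start.

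BAX, on the plus strand at chr19:49458072-49465055, was listed only through a typical enhancer, chr19:49466760-49469538, 2.78 kb long. The region lay 7.65 kb downstream of the nearest annotated BAX start, past the end of the gene, and covered the start of FTL, the ferritin light chain, whose promoter was listed as N-Myc-bound. The common N-Myc peak in it, chr19:49468748-49469501, was 754 bp wide (9.82% of peaks as wide), and its centre was 558 bp inside FTL. It contained no CACGTG and 2 matches of CANNTG. It was the only N-Myc peak within 100 kb of BAX.

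The BAX promoter itself was in no list, and yet it held 4 CACGTG within 135 bp upstream of the canonical start, centred 135, 90, 42 and 11 bp before it. Of 19856 genes with a canonical start, 51 (0.257%) had 4 or more CACGTG within 1 kb, and 17 of these 51 (33.3%) had an N-Myc-bound promoter listed. The 300 bases before the canonical BAX start, chr19:49457832-49458131 on the plus strand, are shown for this cluster of canonical E-boxes, in capitals.
BAX upstream: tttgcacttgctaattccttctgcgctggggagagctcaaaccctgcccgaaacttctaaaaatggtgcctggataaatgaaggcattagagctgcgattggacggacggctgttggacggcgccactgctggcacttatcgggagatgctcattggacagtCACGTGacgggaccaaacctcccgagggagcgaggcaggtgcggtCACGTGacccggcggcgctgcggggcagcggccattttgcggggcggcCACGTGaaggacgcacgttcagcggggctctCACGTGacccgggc

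**Figure D2:**
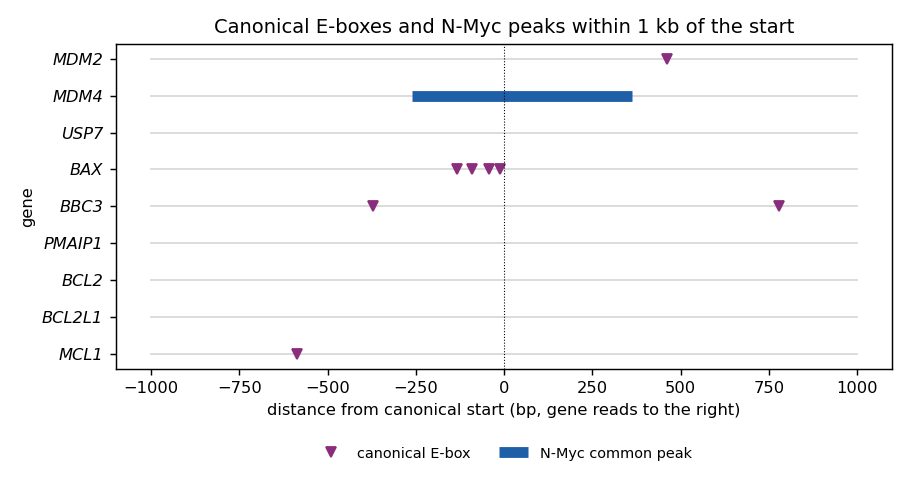
Each line is the window from 1 kb before to 1 kb after the canonical start of a gene, read in the direction of transcription. Triangles mark canonical E-boxes and the thick bar a common N-Myc peak. BAX holds 4 triangles just before its start and no bar, while MDM4 holds the only bar and no triangle.

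The 3 common N-Myc peaks in regions naming the 9 genes thus lay over the MDM4 start, just upstream of HAPSTR1 and inside FTL. None of the 3 contained CACGTG. All 3 contained CANNTG. Among all N-Myc common peaks, 33.43% contained CACGTG and 93.39% contained CANNTG. Conversely, CACGTG was found within 1 kb of the canonical start of 4 of the 9 genes, BAX with 4, BBC3 with 2, and MCL1 and MDM2 with 1 each, and none of these 4 had a listed promoter. Neither gene with a listed promoter, MDM4 or PMAIP1, had one. Across the genome the order was the other way, with CACGTG in 1657 of 3520 windows of genes with an N-Myc-bound promoter (47.1%) and in 4156 of 16336 windows of the other genes (25.4%). With so few members this contrast is a description of the named genes.

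PMAIP1, on the plus strand at chr18:57567228-57571537, was listed both as an N-Myc-bound promoter, chr18:57566191-57568191, and by a typical enhancer, chr18:57567594-57569165. The enhancer was 1.57 kb long, shared 598 bp with the promoter window and also named MC4R, a melanocortin receptor. Neither region contained a common N-Myc peak. The nearest one, chr18:57585599-57585997, was 18.3 kb downstream of the nearest start, between genes and in no listed region. It held no CACGTG and 6 matches of CANNTG. PMAIP1 was not alone in this, since a common peak was missing from 131 of 5114 N-Myc-bound promoters (2.56%), from 144 of 4649 typical enhancers (3.1%) and from 3 of 162 super-enhancers. In the JMJD6 lists there was no such region. The listing of PMAIP1 and the common peaks therefore give different answers, and which reflects binding was not tested. The 300 bases before the PMAIP1 start, chr18:57566928-57567227 on the plus strand, are shown as a listed promoter without a common peak. They hold 1 CANNTG, in capitals, and no CACGTG.
PMAIP1 upstream: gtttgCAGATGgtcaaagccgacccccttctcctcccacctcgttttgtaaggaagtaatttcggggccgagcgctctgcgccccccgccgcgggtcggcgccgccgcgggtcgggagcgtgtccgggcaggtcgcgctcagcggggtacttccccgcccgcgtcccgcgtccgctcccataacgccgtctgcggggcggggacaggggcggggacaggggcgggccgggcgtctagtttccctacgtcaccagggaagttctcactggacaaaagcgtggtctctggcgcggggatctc

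BBC3, the other BH3-only gene, lies on the minus strand at chr19:47724079-47736023 and was in no list. A common N-Myc peak of 253 bp, chr19:47750741-47750993, lay between genes 14.7 kb upstream of its nearest start. The peak contained no E-box of either form and was in no listed region. The 2 CACGTG of the BBC3 window were 372 bp upstream and 779 bp downstream of the canonical start, and neither was under a peak.

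**Figure D3:**
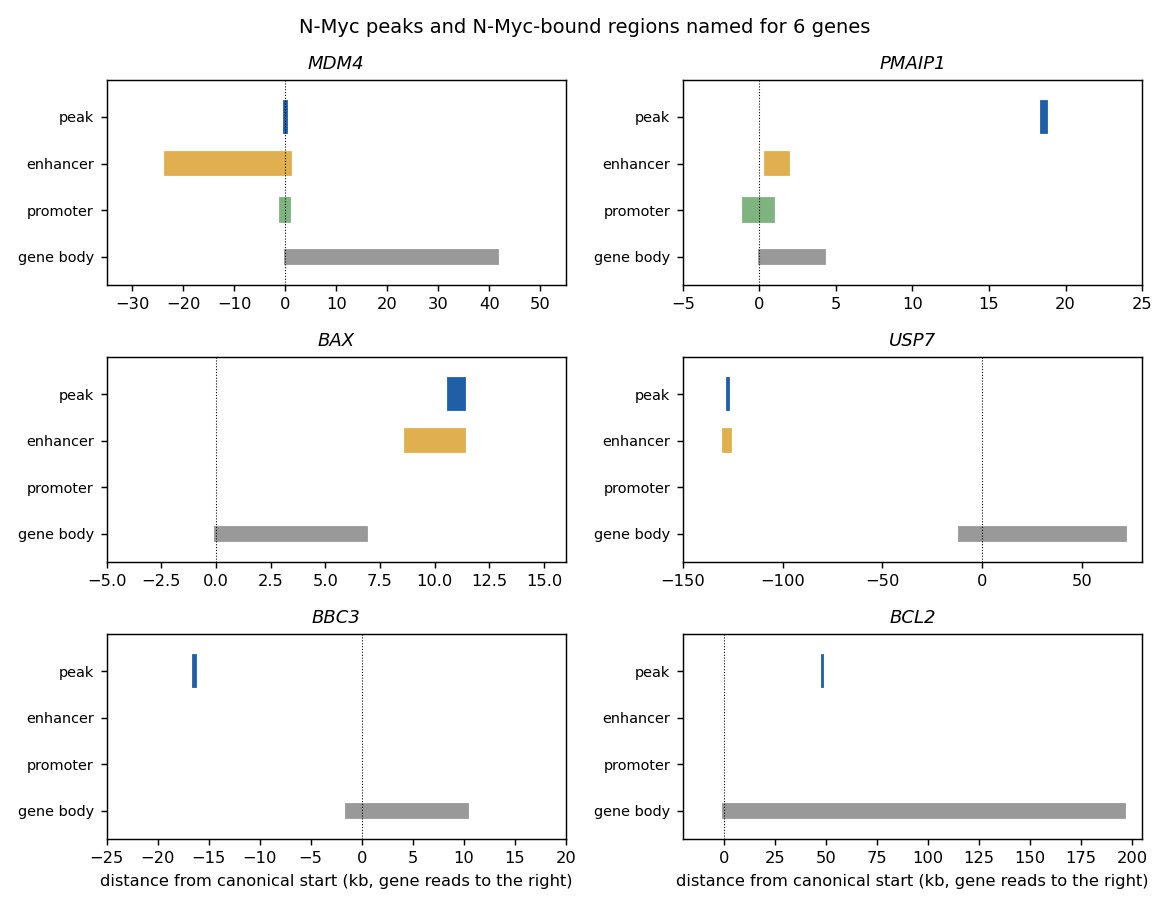
Each panel shows a gene by distance in kb from its canonical start, read in the direction of transcription, with the gene body in grey, N-Myc-bound promoters in green, N-Myc-bound typical enhancers in yellow and common N-Myc peaks in blue (for genes with no peak in a listed region, the nearest peak). The peak of MDM4 sits on its start, those named for BAX and USP7 lie 10.6 and 127.4 kb from the canonical start, both regions of PMAIP1 are free of peaks, and the peak of BCL2 lies inside the gene.

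Of the genes that hold BAX in check, none was listed. BCL2, on the minus strand at chr18:60790579-60987361, was the only one of the 3 with a common N-Myc peak inside the gene. The peak, chr18:60938361-60938707, lay in an intron 47.2 kb from the nearest annotated start. It was in no listed region, as were 3673 (36.1%) of the N-Myc peaks, and so it did not count towards the gene. The peak was 347 bp wide and poor in G and C, at 34.0%, where the median peak had 53.18% and 98.2% of peaks had as high a share or higher. It contained 1 CACGTG. The central 300 bases, chr18:60938384-60938683 on the plus strand, are shown with that E-box in capitals, because it was the only CACGTG in an N-Myc peak within any of the 9 genes.
BCL2 intron: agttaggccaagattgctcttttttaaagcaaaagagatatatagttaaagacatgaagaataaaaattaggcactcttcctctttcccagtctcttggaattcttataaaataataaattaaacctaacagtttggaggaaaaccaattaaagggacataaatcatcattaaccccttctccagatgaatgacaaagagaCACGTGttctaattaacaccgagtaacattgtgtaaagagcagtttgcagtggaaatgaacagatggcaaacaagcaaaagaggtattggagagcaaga

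BCL2L1, on the minus strand at chr20:30252255-30311792, had no peak of its own but 5 common N-Myc peaks within 100 kb. The nearest, chr20:30326750-30327242, was 15.0 kb upstream at the start of TPX2, a spindle assembly factor, with its centre 78 bp before that start. MCL1, on the minus strand at chr1:150533371-150552214, had its nearest N-Myc peak 55.2 kb upstream, at chr1:150607393-150607730. That peak contained 1 CACGTG and was in no listed region. The promoter window of MCL1 held 1 CACGTG too, 586 bp upstream of the canonical start and under no peak, whereas the windows of BCL2 and BCL2L1 held none.

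Ordered by the gap between a start site and the nearest common N-Myc peak, the 9 genes ran from MDM4 at 0 kb through BAX (9.64 kb), BBC3 (14.7 kb), BCL2L1 (15.0 kb), PMAIP1 (18.3 kb), USP7 (30.6 kb), BCL2 (47.2 kb) and MCL1 (55.2 kb) to MDM2 (121 kb). The median over all protein-coding genes was 44.5 kb, with quartiles at 4.35 and 162 kb. Every gene but MDM4 thus lay within the middle range of the genome, 6 of the 9 nearer than the median gene and 3 farther. The gaps to JMJD6, with 561 common peaks, were larger. They ran from 0.119 Mb for BBC3, 0.171 Mb for BCL2L1 and 0.172 Mb for BAX, through 0.311 Mb for MDM4, 0.767 Mb for MCL1 and 1.37 Mb for MDM2, to 6.93 Mb for USP7, 10.8 Mb for BCL2 and 14.2 Mb for PMAIP1. The median over all genes was 2.51 Mb, and 0.78% of genes had a JMJD6 peak within 1 kb of a start, none of the 9 among them. No N-Myc peak described above overlapped a JMJD6 peak.

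**Figure D4:**
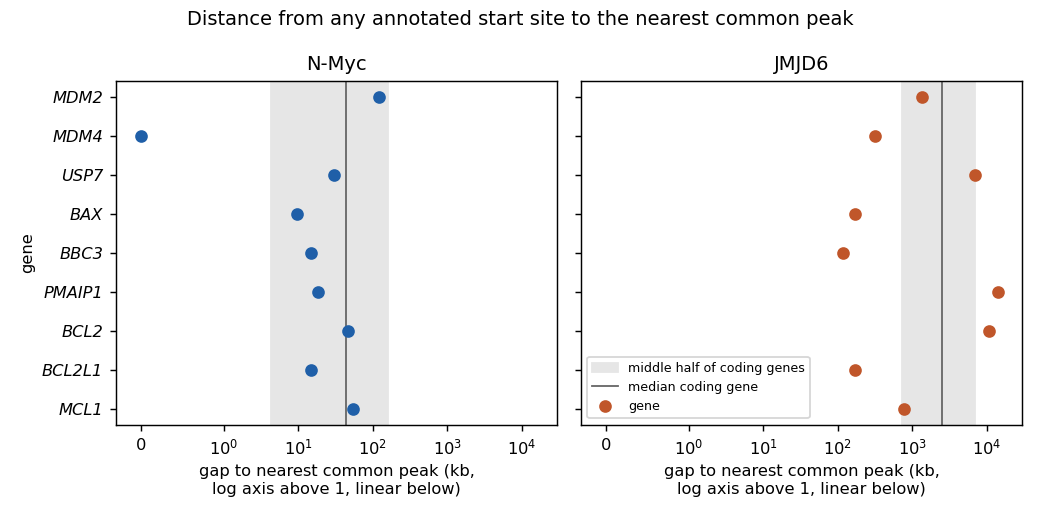
Points give the gap in kb from any annotated start site of each gene to the nearest common peak of N-Myc (left) or JMJD6 (right), on an axis that is logarithmic above 1 kb. Grey bands span the lower to the upper quartile over all protein-coding genes and the line is their median. MDM4 stands alone at 0 kb for N-Myc, and the JMJD6 gaps all exceed 100 kb.

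The rest of the pathway was described with 7 lists of 81 genes, which include the 9. An N-Myc-bound promoter was listed for 24 of the 81 (29.6%), against 17.5% of all protein-coding genes. An N-Myc-bound typical enhancer named 47 of the 81, against 31.9% of all genes. A JMJD6-bound promoter was listed for 2, against 0.626%, and a JMJD6-bound typical enhancer for 3, against 0.909%. In the BCL2 family lists an N-Myc-bound promoter was listed for 0 of 6 anti-apoptotic genes, 0 of 3 effectors and 1 of 8 BH3-only genes, PMAIP1. In these lists BAD, a BH3-only gene with no listed promoter, had a common N-Myc peak 0.211 kb from a start. The other lists had 6 of 14 p53 ubiquitin and stability regulators, 5 of 12 p53 cofactors and modifying enzymes, 9 of 27 p53 targets outside the BCL2 family and 3 of 12 genes of the mitochondrial apoptosis machinery. No test was made of these shares. The lists are small and were chosen with earlier results of these data known. A further 6 of the 57 genes without a listed promoter had a common N-Myc peak within 1 kb of an annotated start: BAD, HUWE1, PPP1R13B, PIDD1, CASP9 and VDAC1, named here after their values were seen.

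**Figure D5:**
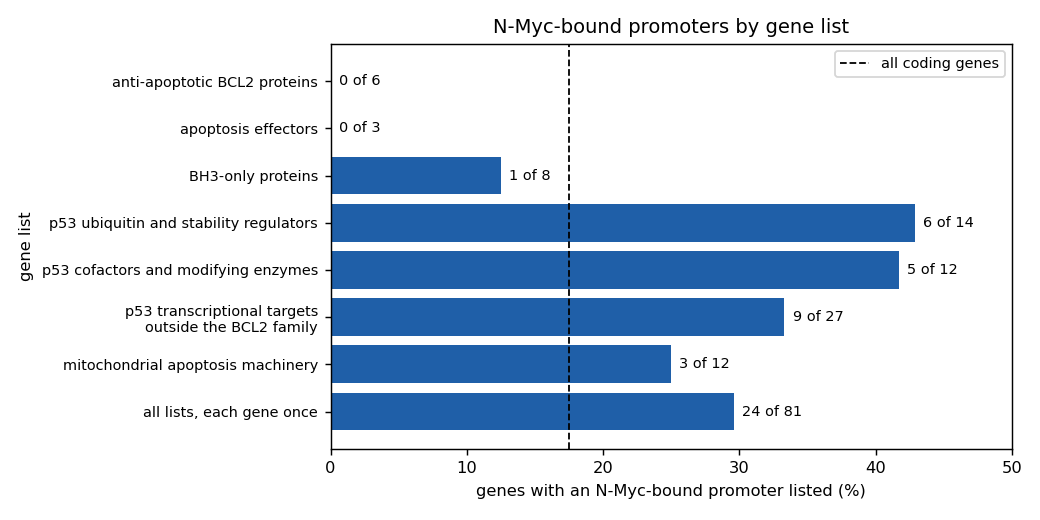
Bars give the share of genes in each list with an N-Myc-bound promoter, with the counts beside them and the share over all protein-coding genes (17.5%) as a dashed line. The 3 BCL2 family lists lie below the line, at 0 of 6, 0 of 3 and 1 of 8, and the other lists above it. The lists were chosen with earlier results of these data known.

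Among regulators of p53 stability with a listed N-Myc-bound promoter, those with peaks centred closest to a start were, beside MDM4, RPL23, RPL5, PSME3 and DAXX. The ubiquitin ligase HUWE1, with a peak over a start but no listed promoter, was not ranked. RPL5, RPL11 and RPL23 are ribosomal proteins that bind MDM2, and their peaks were centred 55, 232 and 5 bp from a start. PSME3 (92 bp), a proteasome activator, and DAXX (173 bp), a partner of MDM2 and USP7, followed. An N-Myc-bound super-enhancer named 1.31% of all protein-coding genes and, of the 81 genes, only RPL11. That region, chr1:23877006-23895796, was 18.8 kb long and also named ID3, an inhibitor of helix-loop-helix factors. The common peak in it lay 135.3 kb from the RPL11 start. CACGTG was found in the promoter peaks of RPL11, RPL23 and PSME3, with 1 each, and not in those of MDM4, RPL5 and DAXX.

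Among the cofactors, KAT5 (TIP60), an acetyltransferase of p53, had its peak centred 4 bp from a start and 3 CACGTG in it. The arginine methyltransferase PRMT5 (69 bp) and the kinase HIPK2 (676 bp) had none. JMJD6 was found at 2 promoters of the pathway, PPP1R13L and BANP. At both genes, the interval listed for JMJD6 had exactly the start and end of an interval listed for N-Myc. The widths, positions and CACGTG counts given below for these genes therefore describe shared intervals and are not separate values for each protein. Why the edges were identical was not tested. PPP1R13L encodes iASPP, an inhibitor of p53. Its peak, chr19:45909115-45910183, was 1069 bp wide, covered a start site and contained 2 CACGTG. The same peak also overlapped untranslated and coding sequence of the neighbouring gene POLR1G. The peak of BANP, a p53-binding nuclear matrix protein, was 506 bp wide with no CACGTG and lay 0.179 kb from the nearest start. The JMJD6-bound typical enhancers naming PPP1R13L and BANP also named ERCC1 and CA5A, in that order. SESN2, a stress-induced p53 target, was the third gene with a JMJD6-bound typical enhancer. That region was 27.6 kb long, and the JMJD6 peak in it lay 12.03 kb from a SESN2 start and overlapped no N-Myc peak. The region also named ATP5IF1, by its older symbol ATPIF1, for which the nearest JMJD6 peak was 10.76 kb from a start.

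Of the p53 targets with a listed N-Myc-bound promoter, which leaves out PIDD1 with its peak over a start, the N-Myc peaks of POLK, TRIAP1, GADD45A, TNFRSF10B and ZMAT3 were centred closest to a start, at 55, 58, 61, 111 and 133 bp. These genes encode a translesion polymerase, an inhibitor of apoptosis, a growth arrest factor, a death receptor for TRAIL and a zinc finger protein. Only the peak of ZMAT3 contained CACGTG, with 2. In the mitochondrial machinery, CASP9, with a peak over a start, and VDAC1, with a peak 632 bp from one, had no listed promoter and were not ranked. The peaks of VDAC2, a channel of the outer membrane (20 bp), and DIABLO, an antagonist of inhibitors of apoptosis (66 bp), lay at their starts with no CACGTG. That of BIRC5, the inhibitor survivin (215 bp), had a gap of 0.072 kb to the start and no CACGTG.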

How the data were processed

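ChIP-seq of CHP-134 cells gave 12 deposited lists of positions, for the 3 N-Myc and 3 JMJD6 replicates. Per the labels and the study's methods, the authors aligned reads to hg19 with BWA, used SAMtools and bedtools, and called peaks against input with MACS2 (2.1.1.20160309) at a q-value under 0.05, keeping peaks common to the replicates. The authors took promoters as 1 kb on each side of RefSeq starts and enhancers from H3K27ac by ROSE, with nearest genes by GREAT. They subtracted H3K27ac peaks within 1 kb of starts and joined nearby enhancers for ranking, so a joined region can span a start. The deposited values are start and end in bp. The study gives a minimum read number per sample, not used here, and the reads per position are unknown.

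Genes were matched by symbol to GENCODE version 44 on GRCh37. Of 8280 symbols, 7627 matched as written, 413 through an older symbol, and 240 were not found. Promoter centres lay within 100 bp of an annotated start for 88.0% (N-Myc) and 88.2% (JMJD6) of matched promoters. A peak was in a region when they overlapped by 1 bp. E-boxes were counted on both strands of the reference. Procedures were tested on simulated data, with Python 3.11.15, numpy 2.4.6, pysam 0.24.0 and matplotlib 3.10.9.

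The genes and gene lists were chosen with earlier results of these data known. Named beyond the 9 were all genes of the lists in JMJD6 or super-enhancer regions, and up to 5 further genes per list with the N-Myc promoter peak centred closest to a start.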

Additional observations from a re-analysis of the deposited data

How the results depend on the processing

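The count of genes with an N-Myc-bound promoter fell from 2 to 1 (MDM4 remained) when a common peak was required within 1 kb or within 5 kb of a start, when that peak had to be at least as wide as the median, and when its larger part had to lie inside the promoter. The count with an N-Myc-bound typical enhancer, 4, became 0 without regions over an N-Myc-bound promoter, and 1 without regions over any coding start, an alternative chosen after seeing the data. It was 3 with regions within 100 kb of a start and 3 with regions holding a common peak. All 3 of the peaks, against 0 with CACGTG, contained CANNTG. The share of all genes with an N-Myc-bound promoter was 17.5% of protein-coding genes, 20.8% by a peak within 1 kb and 6.35% over genes of every type, which adds genes to the denominator. The counts of 0 for JMJD6 and super-enhancers stayed at 0 under the alternatives tried for them. By canonical starts alone, also chosen after seeing the data, 7 of the 9 genes rather than 6 were nearer to an N-Myc peak than the median gene (57.9 kb). USP7 moved to the farther side (97.2 kb), and BCL2 (48.3 kb) and MCL1 (55.31 kb) to the nearer one. Replicates could not be left out, because the lists are pooled. No paired analysis was possible because the result comes from no test and the lists carry no replicate numbers.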

Other observations

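Enhancer regions that named a gene while lying over the promoter of another, as at USP7 and BAX, were frequent in the N-Myc list. Of 8931 pairs of a typical enhancer and a named gene, 2347 (26.3%) overlapped a listed promoter of that gene, 2498 (28.0%) overlapped only listed promoters of other genes and 4086 (45.8%) overlapped none. Of the 4 pairs among the 9 genes, 2 were of the first kind (MDM4 and PMAIP1), 2 of the second (USP7 and BAX) and 0 of the third.

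The N-Myc-bound promoters without a common peak inside, as at PMAIP1, were mostly far from one. The median gap to the nearest common N-Myc peak was 59.4 kb for the 131 promoters, with 98 of them over 10 kb away, and 68.9 kb for the 144 typical enhancers, with 126 over 10 kb away.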
